A study of Mus spretus with 12 samples.

Results

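The genes described here are erythroid genes, the genes that developing red cells use to make haemoglobin and to build the red cell membrane, as measured in liver RNA. They were the 7 symbols Ahsp, Hbb-b1, Hbb-b2, Hba-a1, Alas2, Slc4a1 and Epb42, and every array spot other than a control whose gene name equals one of them was taken. The match found 6 of the 7 genes, with 7 probes on 25 spots, out of 37074 gene names, 56605 probes and 59305 spots. All 6 were among the 18678 genes tested. No spot carried the name Epb42, but 2 probes carried Epb4.2, the older symbol of the same gene, and these are given as levels only. Liver RNA was hybridised to 12 one-colour Agilent arrays, with 4 arrays in each of 3 groups of male SPRET/EiJ mice, a wild-derived inbred strain of Mus spretus.

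All mice ate Teklad rodent diet with corn oil for 60 days, from an age of 20 months, and were 22 months old at sampling. The DDE_PXM group, PXDDE in the labels, ate that food with p,p'-DDE added at 450 mg/kg, a persistent breakdown product of the insecticide DDT. It also drank water with Pedro Ximenez grape must, which brought total polyphenols to 85 mg/L and an equal mixture of glucose and fructose to 31 g/L. The DDE group ate the p,p'-DDE diet without must. The control group had neither p,p'-DDE nor must. No group was given the must, or its sugar, without p,p'-DDE. The design text counts 4 mice in the must group and 4 in the control group. It names no number for the DDE group, whether livers were pooled is not stated, and no source used here says whether blood was flushed from the livers. The p-values below therefore measure the spread between these arrays. The title of the study asks which transcripts accompany the effect of the must on liver injury by p,p'-DDE.

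Red cells take most of their protein as haemoglobin, a tetramer of alpha globin and beta globin chains that each hold a heme. The mouse alpha chains come from Hba-a1 and Hba-a2, and the adult beta chains come from Hbb-b1 and Hbb-b2 in strains with the diffuse haplotype, or from Hbb-bs and Hbb-bt in strains with the single haplotype. Ahsp is the chaperone that holds free alpha chains soluble until they meet a beta chain. Alas2 is the erythroid form of 5-aminolevulinate synthase, which makes the first precursor of heme. Slc4a1 is band 3, the anion exchanger that anchors the membrane skeleton, and Epb42 is protein 4.2, which binds band 3. In adult mice red cells form in bone marrow and spleen, the liver having done so before birth. Reticulocytes, the youngest circulating red cells, still hold globin mRNA, so any tissue RNA that includes blood includes it.

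The probes are 60-base oligonucleotides made against laboratory mouse transcripts. Whether they match Mus spretus base for base was not checked. Their positions in the mm9 build are those given by the scanner files. The sequences that decide which globin a value belongs to are shown here, together with the probes of the chaperone and of the heme enzyme. The Ahsp probe and the Hbb-b2 probe are listed as unmapped. The Alas2 probe lies at chrX:147004993-147005052 on the plus strand, and its first 42 bases run to the stop codon, in capitals.
Ahsp: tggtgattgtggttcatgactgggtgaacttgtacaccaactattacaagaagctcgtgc
Hbb-b2: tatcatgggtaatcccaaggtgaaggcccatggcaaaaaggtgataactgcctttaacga
Alas2: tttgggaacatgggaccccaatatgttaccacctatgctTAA

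Hba-a1 had 2 probes, each printed 10 times on every array, on the plus strand of chromosome 11. The first, at chr11:32184427-32184486, covers the 3′ end of the transcript. The second, at chr11:32183955-32184014, lies within the coding sequence. The probe of the neighbouring Hba-a2, at chr11:32197245-32197304, shares 59 bases in a row with the first Hba-a1 probe, shifted by a single base, so these 2 genes cannot be told apart by those probes. The last 30 bases of each are shown with the polyadenylation signal in capitals, and the second Hba-a1 probe is shown whole.
Hba-a1, first probe: ggtctttgAATAAAgcctgagtaggaagaa
Hba-a2: gtctttgAATAAAgcctgagtaggaagaag
Hba-a1, second probe: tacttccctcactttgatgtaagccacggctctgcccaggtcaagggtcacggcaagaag
The Hbb-b1 probe, at chr7:110976379-110976438 on the minus strand, lies at the 5′ end of its transcript and reaches the start codon, in capitals in its last 30 bases.
Hbb-b1: aaccccagaaacagacatcATGgtgcacct
The files list 2 RefSeq transcripts for the probes of Hba-a1, Hba-a2, Hbb-b1 and Hbb-b2, and the Hbb-b2 probe is listed for the Hbb-b1 transcript too. Values of single globin genes are therefore uncertain as to which copy they come from, while alpha and beta globin have no shared probe. The Slc4a1 probe lies at chr11:102210256-102210315 on the minus strand.

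Levels are log2 of the processed signal relative to the 75th percentile of the same array, so that 0 is the signal of that percentile. Levels of different probes are not comparable with each other. Differences between groups come from 1 limma fit over the 12 arrays, with Benjamini-Hochberg adjustment over the 18678 genes, and genes whose adjusted p lay under 0.05 count as called. On the arrays, between 50.12% and 52.01% of spots were well above background and none was saturated. The 75th percentile itself averaged 702.2 ± 7.63 in DDE_PXM, 610.8 ± 46.9 in DDE and 535.1 ± 32.2 in control livers (SD, n = 4 each). The hepatocyte markers had a mean level between 7.83 and 8.06 on every array, so liver RNA was present on each. This does not exclude RNA of other tissues, whose markers are given below.

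The plainest result was that alpha globin, both beta globin genes and the alpha chain chaperone were lower in DDE_PXM livers than in DDE livers, by 1.55-fold to 4.05-fold. The same 4 genes differed between DDE and control livers by 1.05-fold to 1.22-fold, and of these differences only that of Hbb-b2 passed the test. With the slide as a block, those of Ahsp and Hbb-b1 passed it too. With median centring that of Hbb-b2 did not pass, while Hba-a1 was higher in DDE livers and was called. Alas2 had another pattern than these 4 genes. It was 1.85-fold higher in DDE than in control livers, and its difference between DDE_PXM and DDE livers was -0.02 on the log2 scale, with a 95% interval of -0.13 to 0.08. In bulk RNA, fewer cells of a type and less RNA per cell cannot be told apart.

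**Figure D1:**
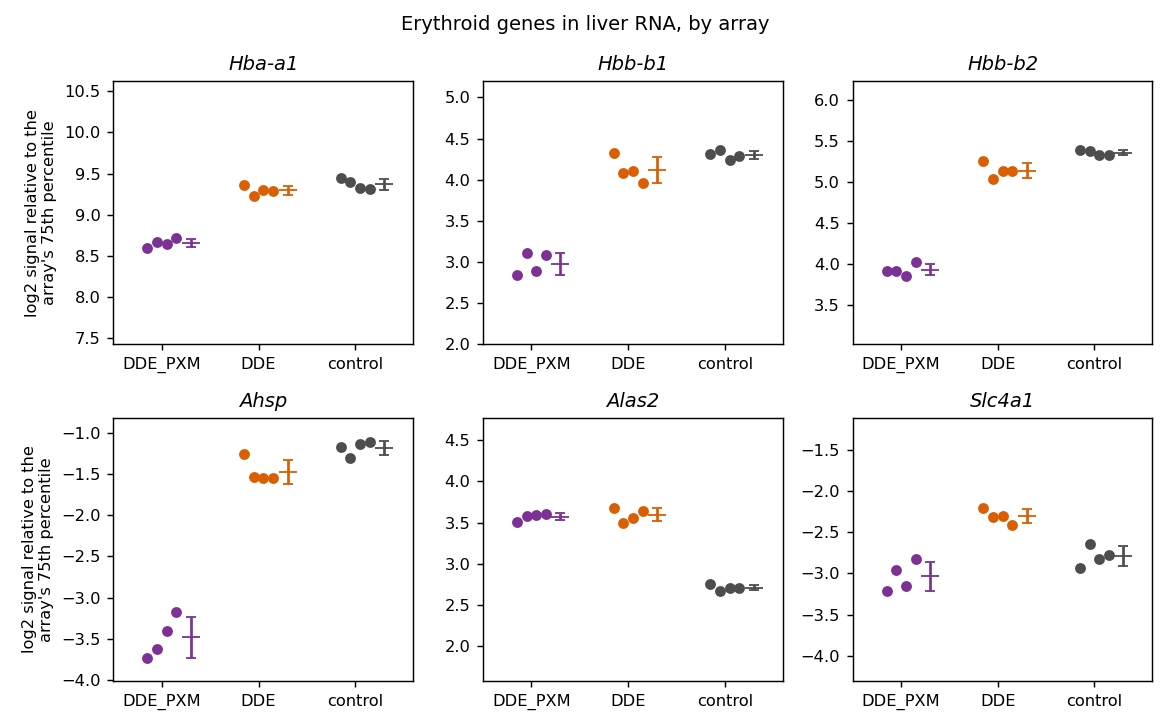
Level of each erythroid gene on each of the 12 arrays (points), with the group mean and SD beside them (n = 4). Every y axis spans the same number of log2 units, on the scale of the signal relative to the array's 75th percentile. Alpha globin, both beta globin genes and Ahsp were low on all 4 DDE_PXM arrays, while Alas2 was high on the DDE_PXM and DDE arrays.

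Hba-a1, by its first probe, read 8.60, 8.67, 8.64 and 8.72 in DDE_PXM livers, 9.36, 9.23, 9.30 and 9.29 in DDE livers, and 9.45, 9.4, 9.32 and 9.31 in control livers. All 4 DDE_PXM arrays were below all 8 others, and DDE and control arrays overlapped. The processed signal behind these levels was 276000 to 297000 in DDE_PXM, 361000 to 418000 in DDE and 342000 to 364000 in control livers, none of it saturated. Alpha globin fell in DDE_PXM livers, by 0.63 on the log2 scale against DDE livers (SE 0.047, 1.55-fold, limma adjusted p = 1.09e-06). Other scalings gave smaller sizes, down to -0.32 with quantile normalisation, and kept the call. Against control livers the difference was -0.71 (1.63-fold, limma adjusted p = 1.23e-07) and -0.27 with quantile normalisation. DDE against control gave -0.08 (95% interval -0.18 to 0.03, limma adjusted p = 0.207). That small difference took the other sign under 4 of the 5 other scalings, and with median centring it was 0.16 and called.

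The second Hba-a1 probe gave 6.96, 7.08, 6.93 and 7.21 in DDE_PXM livers, against 7.78, 7.71, 7.83 and 7.71 in DDE livers. In control livers it gave 7.82, 7.79, 7.79 and 7.83. In a fit over 27098 probes, which called 47.5% of them in DDE against control, 45.7% in DDE_PXM against DDE and 68.6% in DDE_PXM against control, it was lower by 0.71 in DDE_PXM than in DDE livers (SE 0.062, limma adjusted p = 4.73e-06) and differed by -0.05 between DDE and control livers (limma adjusted p = 0.526). The coding and the 3′ probe thus put alpha globin lower by similar amounts. The 10 printed copies of a probe on 1 array differed by an SD of 0.056 for the first and 0.04 for the second probe, at the median over arrays. Hba-a2, through its own near-identical probe, gave -0.64 for DDE_PXM against DDE.

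Hbb-b1 read 2.84, 3.11, 2.89 and 3.08 in DDE_PXM livers, 4.33, 4.08, 4.11 and 3.96 in DDE livers, and 4.31, 4.36, 4.24 and 4.29 in control livers. The DDE_PXM arrays stood apart from all others, and DDE replicate 1 lay among the controls. The gene fell in DDE_PXM livers, by 1.14 against DDE livers (SE 0.082, 2.2-fold, limma adjusted p = 8.16e-07) and by 1.32 against control livers (2.49-fold, limma adjusted p = 7.28e-08). DDE against control gave -0.18 (95% interval -0.36 to 0, limma adjusted p = 0.0894). Without DDE replicate 1 that difference was -0.25 and called (limma adjusted p = 0.0163), and it was also called with the slide as a block (limma adjusted p = 0.0336).

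Hbb-b2 read 3.92, 3.92, 3.86 and 4.03 in DDE_PXM livers, 5.25, 5.03, 5.13 and 5.13 in DDE livers, and 5.39, 5.38, 5.33 and 5.32 in control livers. No group overlapped another. It fell in DDE_PXM livers by 1.20 against DDE livers (SE 0.053, 2.3-fold, limma adjusted p = 1.28e-08) and by 1.42 against control livers (2.68-fold, limma adjusted p = 1.12e-09). It was also lower in DDE than in control livers, by 0.22 (1.16-fold, limma adjusted p = 0.00499). With median centring this last difference was 0.01 and not called (limma adjusted p = 0.876). The probe named Hbb-bt, the beta chain of the single haplotype, at chr7:110961105-110961164, was lower by 1.35 in DDE_PXM than in DDE livers (2.54-fold, limma adjusted p = 5.9e-09). Of the globins made before birth or at low level, Hba-x, Hbb-bh1, Hbq1a and Hbq1b were not well above background on any array, and Hbb-y was on 1 array, a control one.

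Ahsp had the largest difference of the 6 genes in both comparisons of DDE_PXM livers. It read -3.73, -3.63, -3.41 and -3.17 in DDE_PXM livers, -1.25, -1.53, -1.55 and -1.54 in DDE livers, and -1.17, -1.30, -1.13 and -1.11 in control livers. The DDE_PXM arrays were low as a group, though they spread more (SD 0.25) than the DDE arrays (SD 0.14) or the controls (SD 0.087). The chaperone's transcript fell in DDE_PXM livers by 2.02 against DDE livers (SE 0.11, 4.05-fold, limma adjusted p = 1.04e-07). Against control livers it fell by 2.31 (4.95-fold, limma adjusted p = 1.13e-08). Its signal there was only 53.4 to 78.1, against 207 to 231 in DDE and 218 to 260 in control livers. With normexp and an offset of 50 the DDE_PXM against DDE difference was -1.26, and with normexp and quantile normalisation -1.1, both still called. DDE against control gave -0.29 (95% interval -0.54 to -0.04, limma adjusted p = 0.0536). Without DDE replicate 1 it was -0.36 and called (limma adjusted p = 0.0239), and with the slide as a block it was -0.37 and called (limma adjusted p = 0.01).

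Alas2 read 3.51, 3.58, 3.59 and 3.6 in DDE_PXM livers, 3.68, 3.50, 3.56 and 3.64 in DDE livers, and 2.75, 2.67, 2.70 and 2.71 in control livers. Both p,p'-DDE groups lay well above the controls and overlapped each other throughout. The enzyme's transcript rose in DDE livers by 0.89 against control livers (SE 0.046, 1.85-fold, limma adjusted p = 5.32e-08) and in DDE_PXM livers by 0.86 (1.82-fold, limma adjusted p = 2.26e-08). Between DDE_PXM and DDE livers the difference was -0.02, with a 95% interval of -0.13 to 0.08 (limma adjusted p = 0.686). Its sign changed with the scaling, between -0.02 and 0.12 over 6 scalings, and it was called under none of them.

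Slc4a1 read -3.21, -2.96, -3.15 and -2.82 in DDE_PXM livers, -2.20, -2.31, -2.30 and -2.41 in DDE livers, and -2.93, -2.64, -2.83 and -2.77 in control livers. The DDE arrays were the highest, and DDE_PXM and control arrays overlapped. Band 3 rose in DDE livers by 0.49 against control livers (SE 0.09, 1.4-fold, limma adjusted p = 0.000921). It fell in DDE_PXM livers by 0.73 against DDE livers (1.66-fold, limma adjusted p = 5.11e-05). With normexp and quantile normalisation that fall was -0.39, and with normexp alone the rise in DDE livers was 0.26, both called. Its signal was dim, at 76.9 to 99.6 in DDE_PXM, 114 to 135 in DDE and 64.8 to 86.3 in control livers. DDE_PXM against control gave -0.24 (limma adjusted p = 0.0299), but the sign turned under 4 other scalings, to between 0.02 and 0.13, so no direction is given for that pair. Both Epb4.2 probes, on chromosome 2, were not well above background on any of the 12 arrays. Their levels lay between -7.26 and -6.93 in DDE_PXM, between -6.98 and -6.68 in DDE and between -6.77 and -6.45 in control livers, and carry no measured difference.

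Of the 6 genes, 2 were higher and 1 lower in DDE than in control livers, where 50.3% of all tested genes were called, 24% higher and 26.3% lower. In DDE_PXM against DDE livers 0 were higher and 5 lower, where 49.9% of all genes were called, 20.2% higher and 29.7% lower. In DDE_PXM against control livers 1 was higher and 5 were lower, where 70.9% were called, 31.6% higher and 39.3% lower. Arrays of the compared groups did not overlap for 3 of the 6 genes in DDE against control (46.4% of all genes), 5 in DDE_PXM against DDE (44.7%) and 5 in DDE_PXM against control (65.2%). Calls were thus common over all genes. The median difference of the 6 genes was -0.93 for DDE_PXM against DDE, against -0.04 over all genes, and a called gene differed by 1.29-fold at the median. For DDE against control the median of the 6 was -0.13, against -0.02 over all genes. For DDE_PXM against control it was -1.01, against -0.06. The comparisons share arrays, so they are not independent of each other.

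**Figure D2:**
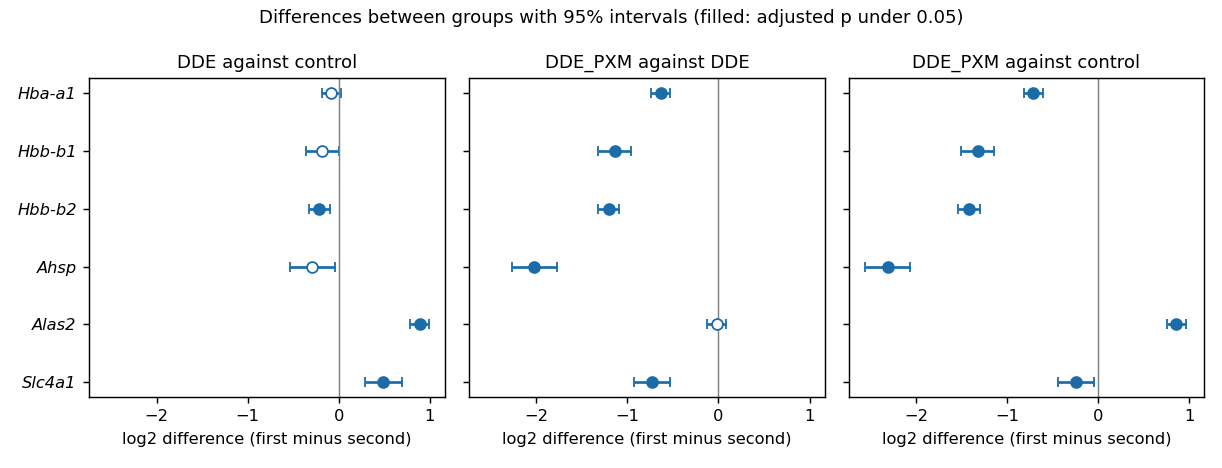
Log2 difference between groups for each erythroid gene with its 95% interval, from the limma fit, with 1 panel for each of the 3 comparisons. Filled points had an adjusted p under 0.05. The globins and Ahsp lie far below 0 in both DDE_PXM comparisons and close to 0 in DDE against control, and Alas2 lies at 0.89 in DDE against control.

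The genes did not move by 1 common factor. Within each array, Hbb-b2 minus Hba-a1 averaged -4.73 ± 0.047 in DDE_PXM, -4.16 ± 0.036 in DDE and -4.01 ± 0.034 in control livers (log2, SD, n = 4 each). Only the change in this difference can be read, since it sets different probes side by side. The beta globin signal was thus lower relative to the alpha globin signal on DDE_PXM arrays, whose highest value, -4.68, lay below the lowest DDE value, -4.19. Ahsp minus Hba-a1 averaged -12.15 ± 0.21 in DDE_PXM, -10.76 ± 0.11 in DDE and -10.55 ± 0.14 in control livers. Alas2 minus Hba-a1 went the other way, at -5.09 ± 0.028 in DDE_PXM, -5.7 ± 0.041 in DDE and -6.66 ± 0.065 in control livers, with no overlap between groups. The size of the Hba-a1 change, against which these differences are taken, depended on the scaling. Hbb-b2 minus Hbb-b1 averaged 0.95 ± 0.11 in DDE_PXM, 1.02 ± 0.11 in DDE and 1.06 ± 0.036 in control livers, and these groups overlapped.

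With each group's mean taken off, the correlation over the 12 arrays between pairs of the 6 genes ran from 0.14 for Alas2 and Slc4a1 to 0.81 for Hbb-b2 and Hba-a1. Ahsp and Hba-a1 were at 0.42, and Hbb-b1 and Hbb-b2 at 0.65. The values share arrays and a scaling factor, and are given as a description. The arrays lay on 5 slides, each scanned in its own pass, and 3 slides held both groups of each comparison. Within slides, DDE_PXM against DDE ranged from -2.2 to -1.87 for Ahsp, from -1.24 to -1.22 for Hbb-b1, from -1.27 to -1.11 for Hbb-b2 and from -0.66 to -0.62 for Hba-a1. Alas2 ranged from 0.8 to 0.89 in DDE against control. Slc4a1 ranged from -0.9 to -0.63 in DDE_PXM against DDE and from 0.34 to 0.52 in DDE against control. For the small DDE against control differences the slides gave -0.4 to -0.24 for Ahsp, -0.36 to -0.16 for Hbb-b1, -0.3 to -0.24 for Hbb-b2 and -0.16 to -0.09 for Hba-a1. With the slide as a block 5 of the 6 genes were called in DDE against control, Ahsp and Hbb-b1 being the added ones. The main fit called 50.3% of all tested genes in that comparison. The share with the slide as a block is not given here, so the added calls are no result about the 6 genes.

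**Figure D3:**
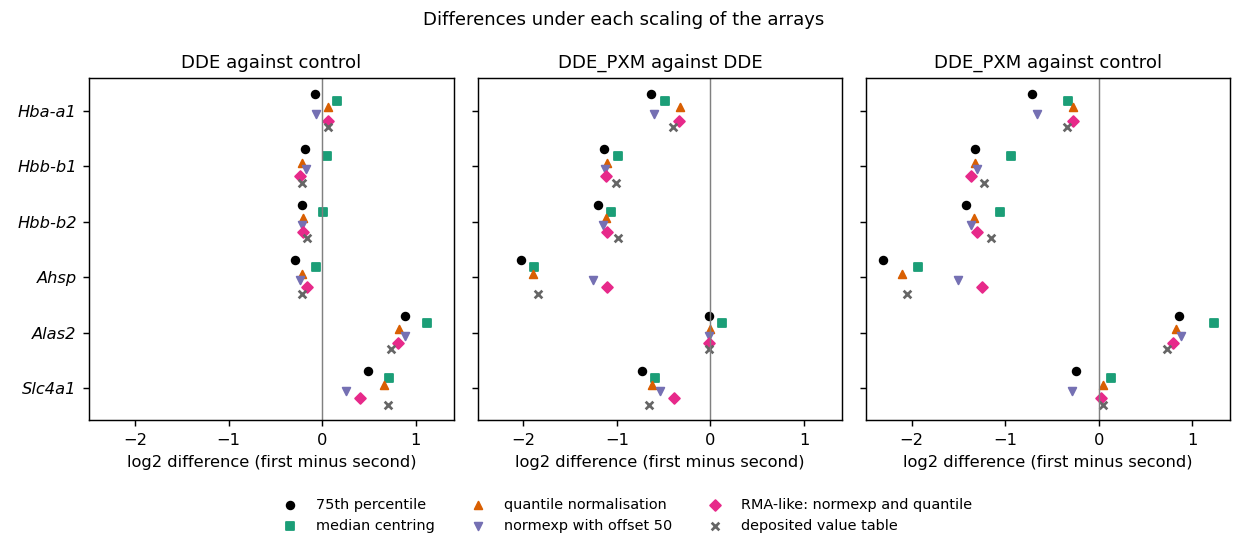
Log2 difference of each erythroid gene under 6 scalings of the arrays, with 1 panel for each of the 3 comparisons. The falls in DDE_PXM against DDE and the rise of Alas2 in DDE against control kept their sign under each scaling, with Ahsp running from -2.02 to -1.1, while Hba-a1, Hbb-b1 and Hbb-b2 in DDE against control, Alas2 in DDE_PXM against DDE and Slc4a1 in DDE_PXM against control crossed 0 under at least 1 scaling.

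Median centring moved the median of all genes to 0.207 in DDE against control, 0.103 in DDE_PXM against DDE and 0.317 in DDE_PXM against control. Relative to that shift, every globin and Ahsp was below the median gene in DDE against control under median centring, where Hba-a1 stood at 0.16, Hbb-b1 at 0.05, Hbb-b2 at 0.01 and Ahsp at -0.06. In DDE_PXM against DDE they stood at -0.49, -0.99, -1.06 and -1.88.

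Other genes of red cells were read from lists. Counts of called genes in every list below stand against the shares over all tested genes in the main fit. These were 24% higher and 26.3% lower in DDE against control, and 20.2% and 29.7% in DDE_PXM against DDE. In DDE_PXM against control they were 31.6% and 39.3%. A count near these shares is no result about its list. Under median centring most calls over all genes were higher in each comparison. Counts given under median centring are therefore not comparable with these shares. Of the precursor genes, several of the most specific were below what the arrays could measure. Rhag and Kel, membrane proteins of blood group systems, and Gata1 and Gfi1b, transcription factors of erythroid precursors, were not well above background on any array. Car1, carbonic anhydrase of red cells, and Cldn13 were on 1 array each.

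Of 17 tested genes for red cell enzymes and late maturation, 4 were higher and 7 lower in DDE_PXM than in DDE livers, with a median of -0.05. Over all genes 20.2% were higher and 29.7% lower there. Cd24a, a surface antigen of erythroid and other precursors, fell by 0.64 (SE 0.056, limma adjusted p = 3.83e-06). Its difference between DDE and control livers was 0.11 (limma adjusted p = 0.11). The list's count was 4 to 6 higher and 5 to 7 lower under the other scalings. On the other side Pklr, pyruvate kinase of liver and red cells, rose by 1.21 (SE 0.085, limma adjusted p = 6.21e-07) and Slc38a5, a glutamine transporter, rose by 1.82 (SE 0.055, limma adjusted p = 5.25e-10). Both genes are expressed outside the erythroid lineage, Pklr in hepatocytes and Slc38a5 in pancreas. Which cells their rises came from was not tested. In DDE against control livers 5 of the 17 were higher and 1 lower. Under median centring 13 were higher and 1 lower, where most calls over all genes were higher too. Blvrb, biliverdin reductase B, was 0.59 higher there (limma adjusted p = 3.11e-05).

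Of 14 tested genes of the red cell membrane and skeleton, 4 were higher and 6 lower in DDE_PXM than in DDE livers, with a median of -0.18 that ranged from -0.15 to 0.04 under the other scalings. Median centring turned the split to 5 higher and 3 lower. Over all genes 20.2% were higher and 29.7% lower in that comparison in the main fit. Tspo2, an erythroid cholesterol-binding protein, fell by 0.72 (SE 0.049, limma adjusted p = 4.9e-07) and Dmtn, dematin, which bundles actin under the membrane, fell by 0.50 (SE 0.074, limma adjusted p = 0.000205). Cd59a, a complement inhibitor of many cells, fell by 0.30 (SE 0.04, limma adjusted p = 8.82e-05). Other members of the list went up in that comparison. Under the other scalings the glucose transporter Slc2a4 was higher by 0.72 to 0.93, Icam4 by 0.28 to 0.49 and Gypc by 0.21 to 0.4. All of these rises were called under each of those scalings. In DDE against control livers 2 were higher and 6 lower. The largest of these falls were Slc2a4, the insulin-regulated glucose transporter of muscle and fat, at -1.49 (limma adjusted p = 2.39e-09) and Ank1, ankyrin 1, at -1.38 (limma adjusted p = 3.82e-09). Ank1 has a muscle isoform, and which isoform the probe reads was not checked. All 12 skeletal muscle markers were also lower in DDE than in control livers, with a median of -1.28. Whether these falls are linked was not tested. In DDE_PXM against control livers 2 of the 14 were higher and 9 lower.

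Transcription factors of the lineage were called in both directions, as genes were over the whole array. Over all tested genes 24% were higher and 26.3% lower in DDE against control. The shares were 20.2% and 29.7% in DDE_PXM against DDE, and 31.6% and 39.3% in DDE_PXM against control. Of 12 tested factors, 3 were higher and 3 lower in DDE than in control livers, near those shares. In DDE_PXM livers 4 were higher and 2 lower than in DDE livers, and 5 higher and 5 lower than in control livers. Under median centring the 3 counts were 5 and 1, 5 and 2, and 6 and 3. Hemgn, hemogen, a nuclear protein of haematopoietic cells, fell by 0.68 in DDE_PXM against DDE livers (SE 0.061, limma adjusted p = 4.42e-06) and differed by -0.01 between DDE and control livers. Zfpm1, the GATA1 cofactor FOG1, rose in DDE_PXM livers by 0.57 against DDE livers (SE 0.048, limma adjusted p = 2.75e-06), and Nfe2, a factor of globin transcription and platelet formation, rose by 0.38 (SE 0.073, limma adjusted p = 0.00127). Of 11 tested genes of erythropoietin signalling, 2 were higher and 3 lower in DDE_PXM than in DDE livers, or 4 higher and 2 lower under median centring. Epor, the erythropoietin receptor, was lower by 0.27 (SE 0.056, limma adjusted p = 0.00207), a call lost under at least 1 other scaling. Cish, a feedback inhibitor of cytokine receptors, rose by 1.02 (SE 0.052, limma adjusted p = 4.7e-08). In DDE against control livers 1 of the 11 was higher and 1 lower, or 6 higher and 1 lower under median centring. Against control, DDE_PXM livers had 3 higher and 5 lower, a split that median centring turned to 6 higher and 2 lower. For Epo itself no array was well above background.

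Among 13 tested genes of heme synthesis, 5 were higher and 1 lower in DDE than in control livers, or 10 higher and 0 lower under median centring. Alas1, the housekeeping counterpart of Alas2 and the main one in hepatocytes, read 8.5 in DDE against 7.68 in control livers, a rise of 0.82 (SE 0.039, limma adjusted p = 2.51e-08). Between DDE_PXM and DDE livers it gave -0.07 (limma adjusted p = 0.177). Under the other scalings Alas1 gave -0.05 to 0.15 there, and at least 1 of them called it. Slc25a39, a mitochondrial carrier needed for heme synthesis, rose by 0.43 in DDE against control livers (limma adjusted p = 7.95e-05) and Cpox, coproporphyrinogen oxidase, rose by 0.19 (limma adjusted p = 0.00103). In DDE_PXM against DDE livers 2 of the 13 were higher and 3 lower, and Ppox, protoporphyrinogen oxidase, rose by 0.72 (SE 0.087, limma adjusted p = 4.43e-05). In DDE_PXM against control livers 3 were higher and 3 lower. Under each of the 5 other scalings more of the 13 were higher than lower in both comparisons of DDE_PXM livers.

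The genes for iron uptake and mitochondrial iron import ran mostly upward. Of 9 tested, 5 were higher and 0 lower in DDE than in control livers at an adjusted p under 0.05 in limma, 7 higher and 1 lower in DDE_PXM than in DDE livers, and 7 higher and 2 lower in DDE_PXM than in control livers. Their medians were 0.34, 0.20 and 0.54, positive under every scaling tried. Tfrc, the transferrin receptor, read 0.63 in DDE_PXM, 0.03 in DDE and -1.1 in control livers. It rose by 1.13 in DDE against control livers (SE 0.089, limma adjusted p = 1.63e-06) and by 0.59 in DDE_PXM against DDE livers (limma adjusted p = 0.000219). Slc25a37, mitoferrin 1, the iron importer of erythroid mitochondria, rose by 0.67 in DDE against control livers (SE 0.058, limma adjusted p = 3.26e-06) and Aco1, which doubles as an iron regulatory protein, rose by 0.50 (limma adjusted p = 9.64e-06). Hepatocytes also express these genes, and the cells behind the rises were not tested.

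Of 15 tested genes that clear haemoglobin and heme, 3 were higher and 4 lower in DDE than in control livers, 4 higher and 7 lower in DDE_PXM than in DDE livers, and 4 higher and 6 lower in DDE_PXM than in control livers. Each of these 3 splits turned under 4 other scalings. Spic, the transcription factor of macrophages that recycle red cell iron, read -1.12 in DDE_PXM, -0.21 in DDE and 0.52 in control livers. It was lower by 0.91 in DDE_PXM than in DDE livers (SE 0.07, limma adjusted p = 1.29e-06) and by 0.72 in DDE than in control livers (limma adjusted p = 8.35e-06). Slc48a1, which moves heme out of lysosomes, rose by 0.53 in DDE against control livers (limma adjusted p = 1.94e-05). Hamp, the iron hormone hepcidin, was 0.28 higher in DDE_PXM than in DDE livers (limma adjusted p = 0.000527).

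Markers of other blood cells, of Kupffer cells and of dividing cells also had members that were lower in DDE_PXM than in DDE livers. Of 14 tested neutrophil markers, 1 was higher and 12 were lower, with a median of -1.58, and their mean level per array was -1.78 to -1.60 in DDE_PXM against -0.29 to -0.19 in DDE livers. The calprotectin genes S100a8 and S100a9 differed by -2.53 and -2.45 (limma adjusted p = 2.78e-11 and 7.68e-11), and Prtn3, proteinase 3 of immature granules, fell by 2.98 (limma adjusted p = 5.7e-10). Of 9 platelet markers 0 were higher and 6 lower in limma (4 lower under 4 other scalings), with Pf4, platelet factor 4, at -0.78 (limma adjusted p = 2.27e-06), and their mean was -1.86 to -1.65 in DDE_PXM against -1.46 to -1.30 in DDE livers. Of 14 cell cycle genes 0 were higher and 9 lower in limma, with a mean of -1.35 to -1.17 in DDE_PXM against -0.81 to -0.71 in DDE livers, and Rrm2, a ribonucleotide reductase subunit, at -1 (limma adjusted p = 4.77e-07). Of 12 Kupffer cell markers 0 were higher and 10 lower, with a mean of 1.38 to 1.44 in DDE_PXM against 1.73 to 1.81 in DDE livers. Of 11 T and B cell markers 0 were higher and 5 lower (3 under median centring), with a mean of -1.50 to -1.17 in DDE_PXM against -1.14 to -1.04 in DDE livers. Their part in the globin result was not tested.

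These blood cell lists did not all follow the globins in the other comparison. In DDE against control livers the neutrophil markers were 3 higher and 6 lower, or 6 higher and 2 lower under median centring, with means of -0.29 to -0.19 in DDE and -0.29 to -0.20 in control livers. The T and B cell markers were 0 higher and 9 lower, with means of -1.14 to -1.04 in DDE against -0.24 to -0.19 in control livers. The Kupffer cell markers were 0 higher and 10 lower, a count of 1 higher and 2 lower under median centring. The platelet markers were 1 higher and 3 lower, a split that median centring turned to 3 higher and 1 lower. The cell cycle genes were 3 higher and 0 lower in limma, or 8 higher and 0 lower under median centring. In DDE_PXM against control livers the counts of higher and lower genes were 0 and 12 for neutrophils, 0 and 10 for T and B cells, 0 and 12 for Kupffer cells, 1 and 4 for platelets and 1 and 9 for the cell cycle, which was 3 and 2 under median centring.

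Markers of neighbouring tissues also differed between the groups. All 12 exocrine pancreas markers were higher in DDE_PXM than in DDE livers, with a median of 2.82 and a mean level of 6.48 to 6.52 in DDE_PXM, against 3.89 to 3.99 in DDE and 4.23 to 4.31 in control livers. All 8 adrenal cortex markers were higher in DDE_PXM than in DDE livers and lower in DDE than in control livers, counts of 6 to 8 under the other scalings. Their mean level was 1.5 to 1.6 in DDE_PXM, -2.31 to -2.22 in DDE and 0.87 to 0.99 in control livers. Skeletal muscle markers averaged 2.40 to 2.52 in DDE_PXM, 2.76 to 2.95 in DDE and 4.1 to 4.16 in control livers. Mb, muscle myoglobin, counted among 4 other globin genes tested, fell by 0.37 in DDE_PXM against DDE livers (limma adjusted p = 0.00332, and up to 0.0614 under the other scalings of Mb) and by 1.4 in DDE against control livers (limma adjusted p = 1.83e-07). Of those 4 globins, 4 were lower in DDE_PXM than in DDE livers and 2 lower in DDE than in control livers, counts of 2 and 1 under median centring, with 1 higher in DDE. Of 10 adipocyte markers, 4 were higher and 2 lower in DDE_PXM than in DDE livers, and 2 higher and 5 lower in DDE than in control livers. Of 11 sinusoidal endothelial markers, 3 were higher and 2 lower in DDE_PXM than in DDE livers, or 6 higher and 0 lower under median centring. Over all genes 20.2% were higher and 29.7% lower there in the main fit. The endothelial means were 1.05 to 1.13 in DDE_PXM and 1.07 to 1.14 in DDE livers. Of 12 hepatocyte markers, 1 was higher and 7 were lower, a count of 3 to 4 higher and 0 lower under 4 other scalings. Whether these tissues bear on the erythroid values was not tested.

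The genes outside these 6 whose levels ran most like theirs were sought by Pearson correlation over the 12 arrays with the mean of the 6, each centred on its own mean. The closest were Mrpl17, a mitochondrial ribosomal protein (r = 0.9949), Stmn1, stathmin, a microtubule protein of dividing cells (r = 0.9892), Nhp2, a part of small nucleolar ribonucleoproteins (r = 0.9883), Ifi27l2b (r = 0.9871) and Pla2g2e, a secreted phospholipase (r = 0.9863). They were followed by Slpi, Bex1, Rhoc, Dnajc12 and Nudt8. Since the groups stand apart, these values mostly restate that a gene was lower in DDE_PXM livers. Stmn1 differed by -1.03 and Bex1 by -2.01 between DDE_PXM and DDE livers, and by 0.09 and 0.1 between DDE and control livers. With the group means taken off, the closest were Nrp2 (r = 0.9804) and Iars (r = 0.9746). Both were picked as the highest over many genes and are given as a description. Between DDE_PXM and DDE livers Nrp2 differed by -0.59 and Iars by 0.3. The mean of the 6 itself stood at -0.72, -0.59, -0.64 and -0.47 on the DDE_PXM arrays, at 0.48, 0.29, 0.34 and 0.30 on the DDE arrays and at 0.26, 0.27, 0.23 and 0.25 on the control arrays. DDE and control arrays lay closer together on this mean than either lay to the DDE_PXM arrays. Between DDE and control livers it sums differences of -0.29 to -0.08 for the globins and Ahsp with 0.89 for Alas2 and 0.49 for Slc4a1.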

How the data were processed

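Scanner files of 12 arrays gave an intensity per spot, read from the processed signal that was deposited. The submitters' processing notes name limma, RMA and version 11.5.1.1 of Agilent Feature Extraction, with no role or order. The authors also deposited processed values, which were taken here as log2. These values had a correlation of 0.9949 to 0.9964 with the log2 processed signal of each array, which does not tell the base of the logarithm. Their column medians were 5.3243 to 5.3479. How they were made is not given in the sources used.

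Levels are log2 processed signal minus the array's log2 75th percentile over the 59305 spots that are not controls. Spots marked as outliers (102 to 177 per array) were left out, and copies of a probe averaged. A probe was kept if every array of any 1 group read it well above background (27098 of 56605), and each of 18678 genes was read from its brightest kept probe. Genes were tested with limma 3.58.1 in R 4.3.3, with files read by version 1.17.8 of data.table, in 1 fit with group as the only term and 9 residual degrees of freedom. The fit was tested on simulated data with independent noise for each gene. That simulation held no error shared by an array, a slide or a scaling, so it does not test for these. List genes were named by a rule: up to 4 called genes of smallest p per list and comparison, or 2 of smallest p where none was called, and the 10 genes most like the members by each of 2 correlations. Those given in the text were chosen from these. Other named genes are those of dim probes or, as Hba-a2 and Hbb-bt, neighbouring globins. Medians and levels of lists are descriptions. The members, lists and tests were chosen with earlier results of these data known. Same-numbered replicates did not deviate together (r of -0.369 to 0.132), so the numbers were not taken to pair arrays. The alternatives were other scalings (median centring, quantile, normexp with an offset of 50, normexp with quantile, the deposited table), filters, probe averages, fits, blocks and each array left out. Array number limits the precision. Some genes of the lists are not reported here.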

Additional observations from a re-analysis of the deposited data

Results flagged for a closer look

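One of 21 sets of 4 values, 7 probes in 3 groups, held a value far from the other 3. It was Ahsp in DDE livers, where replicate 1 read -1.25 against -1.55 to -1.53 in the others, on the log2 scale relative to the array's 75th percentile. Chance alone flags about 1 in 20 such sets. The same array had the highest DDE level of Hba-a1, Hbb-b1, Hbb-b2, Alas2 and Slc4a1, at 9.36, 4.33, 5.25, 3.68 and -2.20. These levels share the array's 75th percentile as divisor, which was the lowest of the DDE arrays, at 550.6 against 602.9 to 661.8. Before scaling, its signal was the lowest of the DDE arrays for Hba-a1 (361000) and Alas2 (7040), and the highest for Ahsp (231). The cause was not tested.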

How the results depend on the processing

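The members were refitted under 26 alternatives, 12 of which left out an array. Of 468 gene results, 435 kept their direction and their side of the threshold, 6 lost a call, 14 gained one and 13 changed sign. In DDE_PXM against DDE, Ahsp (-2.12 to -1.1), Hbb-b1 (-1.19 to -0.99), Hbb-b2 (-1.24 to -0.99), Hba-a1 (-0.67 to -0.32) and Slc4a1 (-0.8 to -0.39) stayed called under all 26, as did Alas2 in DDE against control (0.74 to 1.12). Changes of sign in DDE against control were Hba-a1 at 0.06 (quantile), 0.06 (normexp with quantile), 0.06 (deposited table) and 0.16 (median centring), and, under median centring, Hbb-b1 at 0.05 and Hbb-b2 at 0.01. In DDE_PXM against DDE, Alas2 changed sign with quantile normalisation (0), median centring (0.12) and without DDE replicate 1 (0), the lowest of the values with an array left out being -0.06. In DDE_PXM against control, Slc4a1 stood at 0.04 (quantile), 0.02 (normexp with quantile), 0.04 (deposited table) and 0.13 (median centring), and lost its call under 6 others. The number of erythroid genes called in DDE against control was 3 in the main fit, which called 50.3% of all tested genes. That number was 5 with array weights or the slide as a block. It was 3 to 5 with an array left out, the 5 being without DDE replicate 1. With an array left out, DDE_PXM against DDE called 8216 to 9389 genes, DDE_PXM against control 12599 to 13517 and DDE against control 8480 to 9444. With no filter on dim probes they were 14103 in DDE_PXM against DDE (9320 with it) and 21803 in DDE_PXM against control (13242 with it), as more genes were tested. The share of calls that were higher was 81.3% with median centring against 47.7% in DDE against control, and 66.3% against 40.6% in DDE_PXM against DDE, where quantile normalisation gave 52.2%. In DDE_PXM against control it was 73.1% with median centring against 44.5%. With the replicate number as a block, DDE_PXM against DDE called 8600 genes, DDE_PXM against control 12937 and DDE against control 8785, with 5, 6 and 3 erythroid genes and no call among these changed. The cause of each change was not tested. Ahsp and Slc4a1 were dim, which limits how well their differences are measured.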
